A study of Rattus norvegicus with 5 samples.

Results

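The VEGF and angiopoietin system was followed through 10 genes, 4 ligands (Vegfa, Pgf, Angpt1 and Angpt2) and 6 receptors or coreceptors (Flt1, Kdr, Nrp1, Flt4, Tek and Tie1). They were taken by name from the platform annotation, and each was represented by 1 probe set that names that gene alone, among 14506 genes named in this way. The arrays measured total RNA of proximal tubular cells, an epithelium that reabsorbs most of what the glomerulus filters, taken from the kidney of Sprague-Dawley rats. All 5 arrays come from animals with type I diabetes, with no non-diabetic group among them. The cells of 3 animals were kept for 2 h with C-peptide, the connecting peptide cleaved from proinsulin, and those of 2 animals for 2 h without it. Animals are numbered within each group, and whether same-numbered arrays share an animal is not known here. The sources used here do not give how diabetes was induced, the animals' age or the dose of C-peptide. The question put to these 10 genes is how the tubular ligand Vegfa stood beside its endothelial receptors after a short exposure.

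VEGFA is a secreted growth factor made by kidney epithelia, among them podocytes and tubular cells, and it acts on the endothelium of nearby capillaries. There it binds the tyrosine kinase receptors KDR, which carries most of its growth signal, and FLT1, which also binds PGF, while NRP1 is a coreceptor for both ligands. FLT4 is the receptor of VEGFC and VEGFD. Angiopoietin 1, made by cells around the vessel, activates the receptor TEK and stabilises vessels, angiopoietin 2 from endothelium can block that signal, and TIE1 is a partner of TEK with no well-defined ligand of its own. The receptors other than NRP1 are largely restricted to endothelium, which is not the cell type named in the labels.

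Promoter sequences of 7 of the 10 genes were found in the RefSeq table of assembly GRCr8, those of Vegfa, Pgf, Flt1, Kdr, Flt4, Nrp1 and Tie1. Shown here are Vegfa and its 3 receptors, because the comparison sets these against each other, and Tie1 as a receptor of the angiopoietin side. Each run holds the 250 bases before the table's transcription start, 5′ to 3′ on the gene's strand, and for Vegfa the first of its starts. Capitals mark the hexamers AGGAAG and CGGAAG, which hold the core that ETS transcription factors recognise, on either strand (CTTCCT and CTTCCG when read on the other).
Vegfa, chr9:22452604-22452853, plus strand: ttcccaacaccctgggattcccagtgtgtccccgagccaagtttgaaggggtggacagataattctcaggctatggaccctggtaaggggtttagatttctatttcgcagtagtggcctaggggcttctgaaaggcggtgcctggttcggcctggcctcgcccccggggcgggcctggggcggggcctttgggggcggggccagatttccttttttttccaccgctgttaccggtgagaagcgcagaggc
Flt1, chr12:12333180-12333429, plus strand: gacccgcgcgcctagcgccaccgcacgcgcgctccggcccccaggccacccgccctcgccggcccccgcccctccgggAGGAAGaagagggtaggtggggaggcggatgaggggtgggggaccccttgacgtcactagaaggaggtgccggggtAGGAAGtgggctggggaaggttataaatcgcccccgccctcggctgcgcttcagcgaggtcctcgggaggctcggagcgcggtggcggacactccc
Kdr, chr14:32571813-32572062, plus strand: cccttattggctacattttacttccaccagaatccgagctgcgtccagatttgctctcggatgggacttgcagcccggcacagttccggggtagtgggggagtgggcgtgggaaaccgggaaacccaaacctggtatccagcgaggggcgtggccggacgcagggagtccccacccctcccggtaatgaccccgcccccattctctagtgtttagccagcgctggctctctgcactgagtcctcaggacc
Nrp1, chr19:73256307-73256556, plus strand: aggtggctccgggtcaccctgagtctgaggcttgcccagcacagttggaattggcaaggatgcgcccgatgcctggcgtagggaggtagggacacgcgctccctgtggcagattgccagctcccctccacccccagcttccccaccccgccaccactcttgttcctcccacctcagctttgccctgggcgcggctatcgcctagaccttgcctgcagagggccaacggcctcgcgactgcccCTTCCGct
Tie1, chr5:137304982-137305231, minus strand: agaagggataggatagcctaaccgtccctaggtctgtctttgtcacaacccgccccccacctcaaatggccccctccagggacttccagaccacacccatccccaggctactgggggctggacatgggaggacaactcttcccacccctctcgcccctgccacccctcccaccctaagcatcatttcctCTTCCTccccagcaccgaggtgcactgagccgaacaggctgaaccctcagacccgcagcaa
In windows of 300 bases, with 50 after the start included, an ETS hexamer stood in 4 of the 5 receptor promoters and in neither Vegfa nor Pgf. Flt1 held AGGAAG at positions -172 and -96 from the start, Flt4 at -228 and Tie1 at -61, and Nrp1 held CGGAAG at -8. Kdr held neither. Over the 33469 promoters of the table, 34.5% held AGGAAG, 16.6% CGGAAG and 45.5% at least 1 of them, so such matches are common. For the hypoxia response element only the core form ACGTG was searched, and other forms of the core were not. That form, which 19.3% of all promoters held on either strand, was in none of the 7 genes' windows. Sequence farther from the start than these windows was not searched, so an element there would be missed. These are matches of letters and were not tested as binding sites.

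Intensities are given after quantile normalisation, which brings the arrays to 1 distribution, and differences are C-peptide minus untreated on the scale of log2(intensity + 16). That scale understates the change of dim genes. In the deposited values the array medians ranged from 60.1 to 95.9, and each was 82.1 once normalised. The median difference of all 29215 probe sets was 0.02 after normalisation and -0.13 in the values as deposited. Defining markers of the labelled cells were bright, with mean deposited intensities from 1060 to 6480 for 9 proximal tubule genes. Markers of endothelium (87.7 to 3670 over 11 genes) and of the thick limb (225 to 5490 over 6 genes) were also measured, and none of these genes was at 0 on any array.

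All 6 receptors were lower after C-peptide, by 2.175-fold to 2.509-fold, and in each of them all 3 C-peptide arrays lay below both untreated arrays. None of the 4 ligands was lower after normalisation. The groups did not overlap in that direction in 13.8% of all probe sets (16.7% in the values as deposited, where the 6 receptors separated as well), and 1.03% of all named genes were at least 2-fold lower, as the 6 receptors were. In limma with Benjamini-Hochberg adjustment over all probe sets, 0 of the 10 genes passed adjusted p 0.05, nor did any of the 29215 probe sets (0%). At unadjusted p under 0.05, 1840 probe sets were lower (6.30%) and 1477 higher (5.06%), with all 6 receptors among the lower and no ligand in either. Adjusted over the 14607 probe sets above the median intensity, 393 passed (2.69%), with Flt1, Kdr, Nrp1, Tek and Tie1 among them at adjusted p values in limma from 0.0208 to 0.0393. Over the 18802 with a mean intensity of at least 50, 275 passed (1.46%), with Flt1, Nrp1, Tek and Tie1 among them. Flt4 met both filters only through its untreated arrays (mean deposited intensity 139.5, against 49.4 with C-peptide). It is therefore not named with these receptors, although the counts of 393 and 275 include it.

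**Figure D1:**
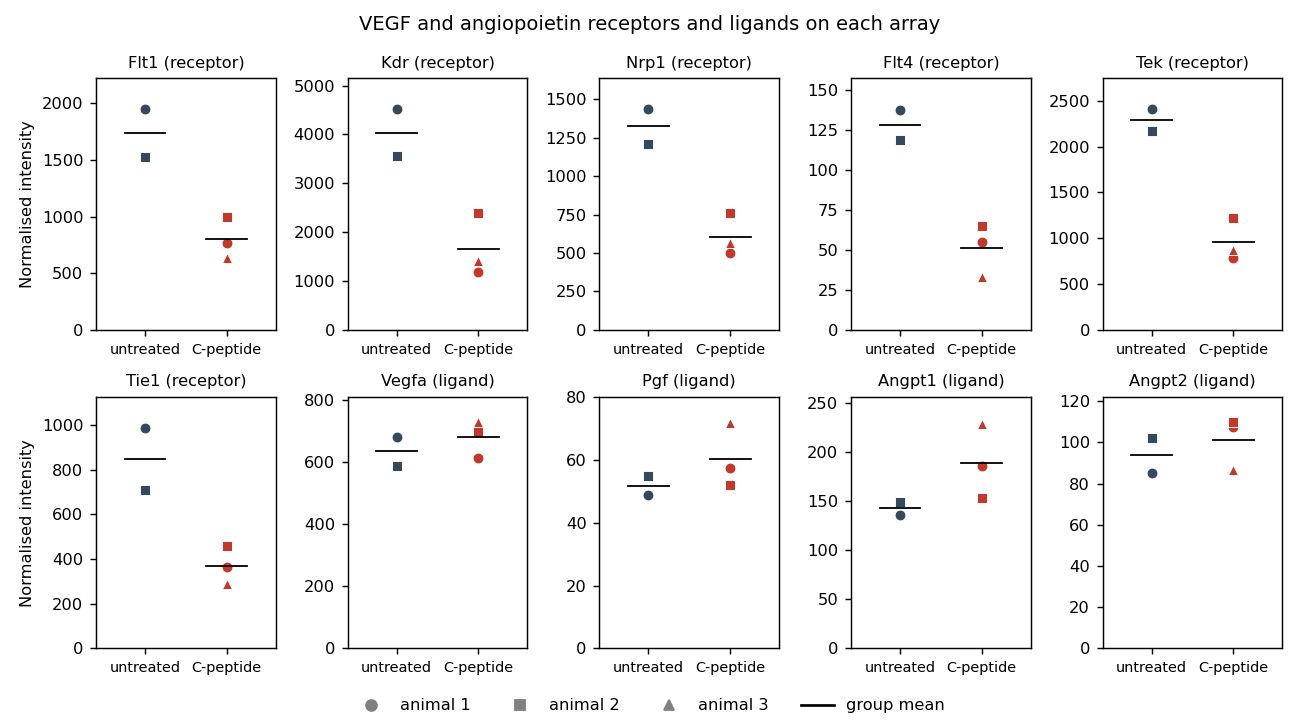
Quantile-normalised intensity (linear axis from 0) of each gene on each of the 5 arrays, with untreated arrays in dark blue, C-peptide arrays in red, marker shapes for animal numbers and black lines for group means. In the 6 receptor panels every C-peptide point lies below both untreated points. In the panels of Vegfa, Pgf and Angpt2 the groups overlap, and in that of Angpt1 the C-peptide points lie above.

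Kdr, the main signalling receptor for VEGFA, had intensities of 1185, 2383 and 1413 for C-peptide animals 1, 2 and 3, and of 4512 and 3553 for untreated animals 1 and 2. The groups stood apart, and C-peptide animal 2 lay closest to the untreated arrays. The group means were 1660 ± 636 (SD, n = 3) and 4033 ± 678 (SD, n = 2). The log2 difference was -1.33 ± 0.29 (SE; adjusted p = 0.172 in limma), or 2.51-fold lower, the widest error among the 10 genes.

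Flt1, the receptor shared by VEGFA and PGF, had intensities of 764, 1000 and 631 in the C-peptide animals and 1950 and 1526 in the untreated ones. Its means were 798 ± 187 (n = 3) and 1738 ± 300.4 (n = 2), again without overlap. The log2 difference was -1.12 ± 0.22 (adjusted p = 0.141 in limma). Nrp1, the coreceptor, read 498, 758 and 562 with C-peptide and 1439 and 1211 without. Its log2 difference of -1.13 ± 0.205 (adjusted p = 0.129 in limma) was close to that of Flt1.

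Flt4, the receptor of VEGFC and VEGFD that marks lymphatic and some fenestrated vessels, was the dimmest receptor probe set. It read 54.7, 64.9 and 33.0 in the C-peptide animals and 137.5 and 118.5 in the untreated ones, with no overlap. The log2 difference was -1.13 ± 0.23 (adjusted p = 0.144 in limma), and it was -1.36 with a pseudocount of 1 and -0.75 with one of 64 in place of 16.

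Tek, the angiopoietin receptor, had intensities of 786, 1225 and 873 with C-peptide and 2412 and 2172 without. Its means were 961 ± 233 (n = 3) and 2292 ± 169.7 (n = 2). The log2 difference of -1.26 ± 0.21 had the smallest p of the 10 genes (adjusted p = 0.114 in limma) and amounted to 2.40-fold. Tie1, its partner, read 363, 456 and 287 against 988 and 709. Here too the groups did not overlap, and the log2 difference was -1.17 ± 0.23 (adjusted p = 0.141 in limma).

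The 6 receptors moved by similar amounts. The difference between any pair of them, taken as a log2 ratio on each array, changed by 0.004 to 0.21 between the groups. In 14 of the 15 pairs the ratios of the groups overlapped. The exception was Nrp1 against Tek, whose ratio was higher by 0.14 with C-peptide.

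Vegfa, the ligand with the brightest probe set of the 4, had intensities of 615, 699 and 731 in C-peptide animals 1, 2 and 3 and of 682 and 589 in untreated animals 1 and 2. The values interleaved, with means of 681 ± 59.9 (n = 3) and 636 ± 65.8 (n = 2). Its log2 difference was 0.10 ± 0.15, with a 95% interval from -0.26 to 0.46 (adjusted p = 0.855 in limma). The interval leaves out a decrease of the size seen in any receptor, and its sign depended on scaling, since the value was -0.10 as deposited, where all probe sets had a median of -0.13.

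Pgf, placental growth factor, was dim at 57.3, 52.1 and 71.6 with C-peptide and 48.7 and 54.7 without, and its groups overlapped. It was the 1 gene of the 10 below the median probe set in mean intensity. Its log2 difference was 0.17 ± 0.16 (95% interval -0.21 to 0.55), but 0.04 in the values as deposited, 0.06 with C-peptide animal 3 omitted and 0.10 with untreated animal 1 omitted or a pseudocount of 64. Angpt2, the antagonist of endothelial origin, read 108, 109.8 and 86.4 against 85.3 and 102. Those values interleaved as well, with a log2 difference of 0.09 ± 0.16 (95% interval -0.29 to 0.47), or -0.10 in the values as deposited.

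Angpt1, the activating ligand of Tek, was the ligand whose groups did not overlap, at 186, 154 and 228 with C-peptide and 136 and 149.5 without. C-peptide animal 2 lay next to untreated animal 2. The log2 difference was 0.36 ± 0.18 (95% interval -0.08 to 0.79; adjusted p = 0.516 in limma), and 16.1% of all probe sets separated in this direction. In the values as deposited it was 0.14 and the groups overlapped. Without C-peptide animal 3 it was 0.22.

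**Figure D2:**
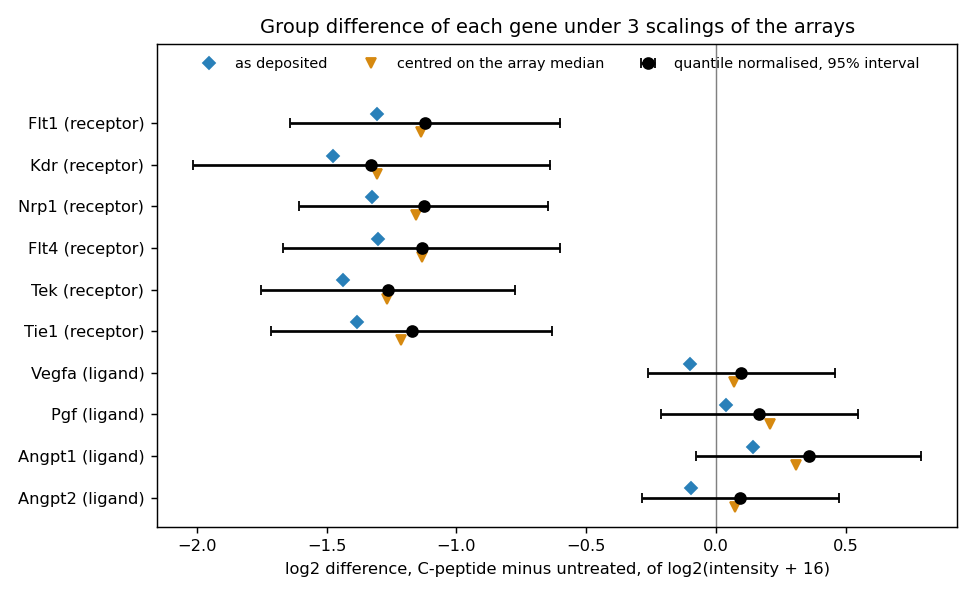
Log2 difference, C-peptide minus untreated, of each gene, with black points and bars for the quantile-normalised values and their 95% interval from limma, blue diamonds for the values as deposited and orange triangles for arrays centred on their median. The 6 receptors lie between -1.12 and -1.47 under all 3 scalings, while the ligands lie between -0.10 and 0.36.

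Each ligand was then set against a receptor it is known to bind, as the difference of their log2 values on each array, in 7 pairs. A change in such a ratio shows that the 2 genes changed unequally and does not show which of them changed. Vegfa against Kdr, relative to the mean of the untreated arrays, stood at 1.70, 0.88 and 1.69 in C-peptide animals 1, 2 and 3 and at -0.07 and 0.07 in the untreated animals. The ratio was thus higher by 1.42 on the log2 scale, or 2.68-fold, and its groups did not overlap. Vegfa was 2.33-fold higher against Flt1 and 2.33-fold higher against Nrp1. Pgf gave 2.44-fold against Flt1 and 2.45-fold against Nrp1, Angpt2 gave 2.56-fold against Tek, and Angpt1 gave 3.07-fold against Tek. All 7 ratios were higher on each of the 3 C-peptide arrays than on both untreated arrays. The exact permutation test, two-sided on the absolute difference, gave p = 0.1 for each (0.1 after Benjamini-Hochberg adjustment over the 7), which is the smallest that 10 arrangements of 3 against 2 arrays allow. With a pseudocount of 1, Pgf against Flt1 gave p = 0.2 in the same exact permutation test, while the other pairs stayed at 0.1. The pairs share genes and arrays and are not independent of each other.

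Across single arrays the receptors kept together. Their median, relative to the untreated mean of each gene, was -1.275 in C-peptide animal 1, -0.81 in animal 2 and -1.46 in animal 3. C-peptide animal 2 had the highest value of its group in all 6 receptors, and its 6 values lay between -0.89 and -0.745. Animal 1 was the lowest of the group for 3 receptors (Kdr, Nrp1 and Tek) and animal 3 for the other 3. Untreated animal 1 exceeded untreated animal 2 in all 6, with medians of 0.15 and -0.15. The 4 ligands had medians of 0.15, 0.12 and 0.29 in the C-peptide animals.

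**Figure D3:**
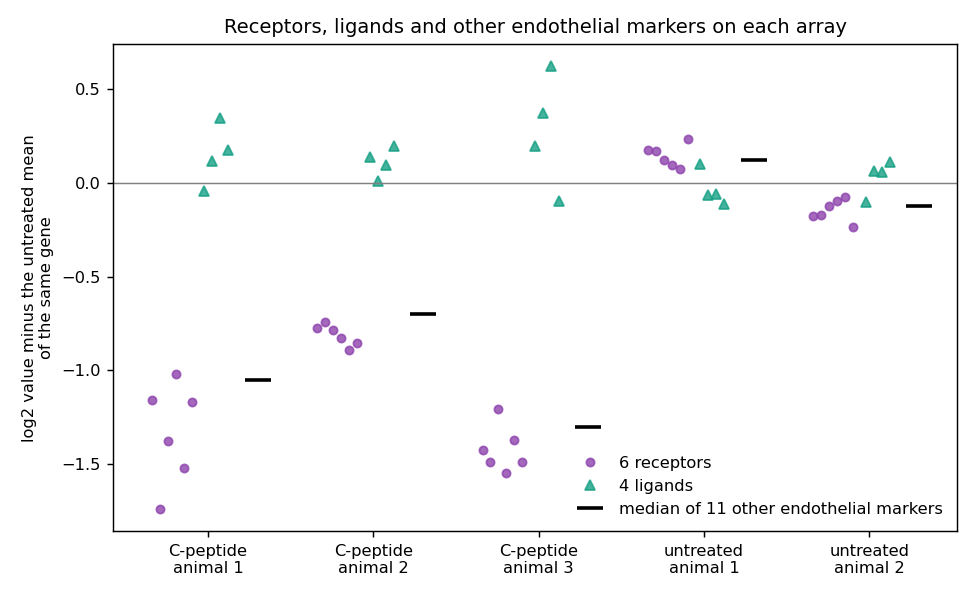
Log2 value of each gene on each array minus that gene's untreated mean, with purple circles for the 6 receptors, green triangles for the 4 ligands and black bars for the median of 11 other endothelial markers. On each C-peptide array the receptors and the endothelial median lie below 0, least so on that of animal 2, while the ligands lie between -0.10 and 0.62 there.

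Endothelial markers outside the 10 genes were lower on the same arrays. Of 11 measured, 10 had a difference below 0. Without overlap 9 were lower and 1 was higher, beside 13.8% and 16.1% of all probe sets. The list median was -1.07, beside -1.15 for the 6 receptors and 0.03 for all named genes. Their summed normalised intensity ranged from 6297 to 9662 with C-peptide and from 14649 to 16639 without, and that of the 6 receptors from 3650 to 5887 and from 9289 to 11438. Robo4, a guidance receptor of endothelium, was at -0.95 ± 0.15, Ehd3 of glomerular endothelium at -1.46 ± 0.26 and Pecam1, an adhesion molecule of endothelium, at -1.14 ± 0.22. The list's median by array was -1.05, -0.70 and -1.305 in C-peptide animals 1, 2 and 3, which follows the order of the receptors. The list was not uniform, since Plvap, of fenestrated capillaries, was at -0.11 and Cldn5, a tight junction protein, at 0.25, or 0.05 as deposited (both named after their values were seen). Cldn5 was the marker that was higher without overlap, but its groups overlapped as deposited. Relative to the mean of the 11 markers on each array, the receptors were at -0.24 (Flt1 and Nrp1) to -0.44 (Kdr). All 6 were lower without overlap, which was not counted over all probe sets on this measure. Flt4 was, however, at 0.07 on that measure with a pseudocount of 64, and at -0.45 with one of 1. Leaving out Plvap and Cldn5, a choice made after the values were seen, took the group difference of the marker mean from -0.88 to -1.095. That alone shifts every receptor upward on this measure. Relative to the other 9 markers, Flt1 and Nrp1 were at -0.03, Flt4 at -0.04, Tie1 at -0.08, Tek at -0.17 and Kdr at -0.23, and the groups overlapped in all 6. Omitting 1 array also moved the values relative to the 11 markers, in either direction. They ranged from -0.58 to -0.27 for Kdr, from -0.44 to -0.28 for Tek and from -0.40 to -0.175 for Tie1. For Flt4 the range was -0.38 to -0.15, for Nrp1 -0.31 to -0.15 and for Flt1 -0.28 to -0.19. In RNA of a mixed preparation, fewer endothelial cells and less receptor RNA per cell cannot be told apart. The part of the endothelial markers in the receptors' values was not otherwise tested.

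Markers of the other cells in the preparation lay on both sides. Their counts without overlap stand beside 13.8% of all probe sets lower and 16.1% higher. Proximal tubule genes had a median of 0.56 (0.38 as deposited and 0.37 with untreated animal 2 omitted), with 5 of 9 higher without overlap, and those with the smallest p were Cubn (0.75 ± 0.17) and Lrp2 (0.80 ± 0.20), the endocytic receptors cubilin and megalin, and Slc22a6, an organic anion transporter (0.97 ± 0.26). The summed level of that list was 23120 to 29805 with C-peptide and 17674 to 21691 without. Podocytes are another source of VEGFA, and their 6 measured markers had a median of -0.50 (-0.68 as deposited), 4 of them lower without overlap. Podxl (-1.32 ± 0.265) and Clic5 (-1.21 ± 0.25), which endothelium also expresses, had the smallest p there, and Nphs1, the slit diaphragm protein nephrin, was at 0.11 (named after its value was seen). The list's summed level ranged from 1536 to 2532 and from 3889 to 4723. Thick limb markers, of a further source of VEGFA, had a median of -0.03 (-0.18 as deposited) over 6 genes, none of which separated the groups, with summed levels of 6969 to 13203 and 9357 to 10214. Without untreated animal 1 the podocyte median was -0.32, and without untreated animal 2 it was -0.67. The thick limb median took either sign as arrays were left out, at 0.20 when C-peptide animal 1 was omitted, -0.26 when animal 2 of that group was, and 0.015 or -0.06 when untreated animal 1 or 2 was. The part of both cell types in the values of Vegfa was not tested.

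The remaining cell lists bear on Flt4, Angpt1 and the white blood cells. Here too, counts without overlap stand beside 13.8% of all probe sets lower and 16.1% higher. Lyve1, a hyaluronan receptor of lymphatic and some other endothelium, was lower at -1.41 ± 0.18 (adjusted p = 0.0966 in limma), the largest of its 4-gene list. Prox1, the factor that defines lymphatic endothelium, was at -0.01 (named after its value was seen), and the list's median was 0.10, or -0.07 as deposited. Its summed levels of 690 to 960 against 1361 to 1541 reflect Lyve1, since the other 3 genes summed to 304 to 596 and 321 to 332. Mesangial, pericyte and smooth muscle markers, of the cells that make angiopoietin 1, gave a median of -0.27, or -0.49 as deposited (8 genes, 3 of them lower without overlap), with Des at -0.55 ± 0.15, Pdgfrb at -0.36 ± 0.16 and Tagln at -0.36 ± 0.185. Their summed level was 5029 to 5616 with C-peptide and 5564 to 6043 without. Without C-peptide animal 1 the medians were -0.06 for the lymphatic and -0.08 for the mesangial list. For 8 immune markers the median was -0.59 (-0.82 as deposited), 7 being lower and 1 higher without overlap, with summed levels of 1617 to 2123 against 2938 to 2986. Nkg7, of natural killer and T cells, stood lowest at -1.58 ± 0.31, and Cd79b of B cells was the higher one at 0.14 (named after its value was seen), which was -0.08 with overlap as deposited and overlapped with arrays centred. For 6 distal and collecting duct markers the median was 0.23, but 0.006 as deposited, 0.09 with untreated animal 2 omitted and 0.13 with C-peptide animal 3 omitted, and the summed levels were 3043 to 4154 against 2561 to 3110. No gene of any marker list passed adjusted p 0.05, and none was at 0 on any array.

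The other genes of the pathway included further ligands and the partners of the receptors on endothelium. Among 7 further ligands and coreceptors, 0 passed adjusted p 0.05 and 3 were lower without overlap, beside 13.8% of all probe sets. These were Plxnd1, a semaphorin receptor of endothelium, at -1.43 ± 0.32, Cdh5, the VE-cadherin that associates with KDR, at -1.10 ± 0.30 (also counted among the endothelial markers), and Itgb3, the integrin beta 3 chain, at -0.97 ± 0.14 (adjusted p = 0.0979 in limma). Itgb3 read 114, 106 and 101 with C-peptide and 229 and 219 without. Of the remaining ligands, Vegfb was at 0.16, Vegfc at -0.01 and Vegfd at -0.24 (named after their values were seen), and the list's median was -0.24 (-0.13 without C-peptide animal 1, and -0.40 without C-peptide animal 2 and as deposited). Ptprb, the phosphatase of TEK, and Itgav were not analysed here.

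Of 11 genes of receptor signalling (median -0.20, and -0.43 as deposited), 7 were lower and 1 was higher without overlap. Over all probe sets these shares were 13.8% and 16.1%. Of the 11, 0 passed adjusted p 0.05. Nos3, the endothelial nitric oxide synthase that VEGF signalling activates, read 276, 316 and 261 with C-peptide and 676 and 535 without. Those groups stood well apart, with a log2 difference of -1.05 ± 0.17 (adjusted p = 0.110 in limma). Fyn, a Src family kinase, was at -0.95 ± 0.20, and Plcg1, the phospholipase that KDR activates, at -0.38 ± 0.15. The gene on the other side was Src, at 0.28 (named after its value was seen), or 0.06 with overlap as deposited.

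Of 10 genes that VEGF induces in endothelium (median -0.47, and -0.685 as deposited), 6 were lower and 1 was higher without overlap. Over all probe sets these shares were 13.8% and 16.1%. Dll4, the Notch ligand of tip cells, was at -1.18 ± 0.26, Nid2, a basement membrane protein, at -1.04 ± 0.18 and Cxcr4, a chemokine receptor, at -0.64 ± 0.13. Several of these genes are endothelial in expression, and on the same arrays the endothelial markers had a median of -1.07. The gene that was higher without overlap was Rcan1, an inhibitor of calcineurin, at 0.71 ± 0.31 (named after its value was seen), though its groups overlapped with arrays centred. None passed adjusted p 0.05.

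The hypoxia system controls Vegfa transcription in epithelia through HIF factors. Its factors and their regulators gave a median of -0.07 (9 genes), with Epas1, the HIF-2 alpha subunit abundant in endothelium, at -1.08 ± 0.235 and Egln3, a prolyl hydroxylase, at -0.93 ± 0.25, both lower without overlap. That median was -0.29 as deposited, 0.03 with untreated animal 1 omitted and -0.24 with untreated animal 2 omitted. Hif1a was at 0.18 without overlap after normalisation, and at -0.006 with overlap as deposited (named after its value was seen). Hypoxia targets other than Vegfa had a median of 0.17 over 10 genes, and -0.002 in the values as deposited. Adm, adrenomedullin, read 307, 229.9 and 294 with C-peptide and 144.5 and 179 without, a log2 difference of 0.72 ± 0.18. P4ha1, a collagen prolyl hydroxylase, was at 0.57 ± 0.19 and Pgk1, a glycolytic enzyme, at 0.36 ± 0.18. These 3 were higher without overlap, beside 16.1% of all probe sets, while Pdk1 (-0.14) and Ero1a (-0.24), named after their values were seen, were lower without overlap, beside 13.8%. As deposited the groups overlapped for Pgk1 and Pdk1, and for Pgk1 with arrays centred as well. None of the 10 passed adjusted p 0.05.

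**Figure D4:**
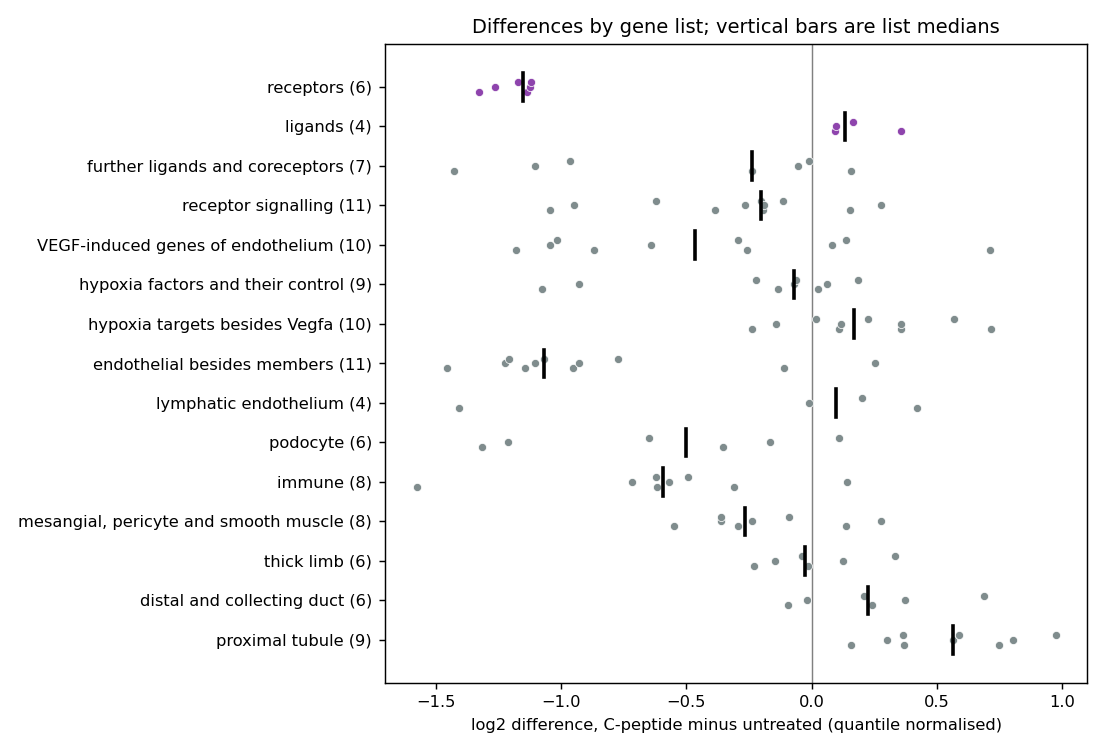
Log2 difference, C-peptide minus untreated, of every measured gene in each list (points), with black bars for list medians and the number of genes in brackets. The 6 receptors (median -1.15) lie beside the 11 other endothelial markers (median -1.07). The median of the 4 ligands (0.13) lies between those of the lymphatic list (0.10) and the hypoxia targets (0.17).

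Likeness was measured as the root mean square distance between log2 profiles over the 5 arrays, each centred on its own mean, among 8564 other named genes above the median probe set in mean intensity. Closest to Kdr were Nherf2, a scaffold protein, at 0.03, Podxl at 0.05 and Elk3, an ETS family factor, at 0.05, where the profile of Kdr itself had a spread of 0.74. These 3 differed between the groups by -1.28, -1.32 and -1.24. Closest to Tek were Egfl7, a protein secreted by endothelium, at 0.06, Fam117b at 0.06 and Clic5 at 0.07, against a spread of 0.655 (their differences were -1.21, -1.20 and -1.21). The profile of Vegfa was nearly flat, with a spread of 0.11, and Dcaf8, Arel1 and Htt lay closest to it at 0.02 each. With 5 arrays, many genes can lie this close.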

How the data were processed

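The members and gene lists were chosen with earlier results of these data known, as was quantile normalisation. The authors deposited linear probe-set intensities from the PLIER summary of Expression Console 1.1, an Affymetrix program, per the submitters' processing notes. Their background correction, scaling and filters are unknown here, and no batch or scan date was found. Of 29215 probe sets, 15310 carried 1 symbol, 323 several and 13582 none. The RefSeq table (GRCr8) held 15279 of the single symbols and updated them. The build of the array design is unknown here, so promoter coordinates are RefSeq's alone. Where a gene had several probe sets, the brightest stood for it.

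Intensities were quantile normalised, 16 was added, and log2 values went into limma 3.58.1 (lmFit, eBayes; R 4.3.3) with group as the single term. Tests were two-sided, and p-values were adjusted over all probe sets by Benjamini-Hochberg. The scripts were tested on simulated arrays. Per the labels, each array of a group is a separate animal, and their number limits the precision. Every member is named, as are up to 3 genes of each other list with the smallest p and the 3 genes closest to Kdr, Tek and Vegfa. Alternatives were other scalings, pseudocounts, intensity filters, variance priors, array weights, the animal number as a block and leaving out each array.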

Additional observations from a re-analysis of the deposited data

How the results depend on the processing

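The 6 receptors kept their sign in all alternatives run, at adjusted p values in limma from 0.0208 to 0.815, and all 6 separated the groups in each alternative in which overlap was counted. Beside the filter above the median intensity (adjusted p 0.0296 for Flt1, 0.0393 for Kdr, 0.0305 for Flt4, 0.0255 for Nrp1, 0.0208 for Tek and 0.0296 for Tie1, at differences of -1.12, -1.33, -1.13, -1.13, -1.26 and -1.17), a minimum mean intensity of 50 called Flt1, Nrp1, Tek and Tie1 (0.0315 to 0.0430 in limma) and Flt4 (0.0434), and a trended and robust prior called Flt1, Nrp1, Tek and Tie1 (0.0330 to 0.0485). Flt4 met both filters only through its untreated arrays, so its calls there carry no weight. Probe sets past adjusted p 0.05 in limma numbered 52 as deposited (0.178%), 29 with arrays centred (0.0993%), 1 at a pseudocount of 1, 118 at a pseudocount of 64, 393 above the median intensity, 275 from a mean of 50 (1.46%) and 207 with the trended prior (0.709%), and 54 passed adjusted p 0.1. Leaving out any single array left 0, where an untreated array left alone was taken to vary like the C-peptide arrays. As deposited, Vegfa (-0.10) and Angpt2 (-0.10) lay below 0 and 0 members were higher without overlap. Vegfa ranged from -0.006 (without untreated animal 2) to 0.20 and Angpt2 from -0.019 (without untreated animal 1) to 0.20 when arrays were left out. Between 2 and 3 members were then higher without overlap, but groups of fewer arrays separate more readily. The share over all probe sets was not counted with arrays left out. Neither this count nor the receptors' separation there can therefore be set beside one. The animal number as a replicate block gave receptor differences from -1.24 (Kdr) to -0.93 (Flt4), none past adjusted p 0.05, and 0 probe sets that passed it. With arrays left out, receptor differences ranged from -1.62 (Kdr) to -0.93 (Flt4). Deviations of same-numbered arrays from their group means correlated at -0.03 and 0.01. With 2 untreated arrays the deviations of 1 mirror those of the other, so these values cannot decide whether same-numbered arrays belong together. The mean over a gene's probe sets gave the same values, as each member has 1. The alternatives given for gene-list medians, and for receptors relative to endothelial markers, were chosen after the data were seen.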
